A study of Mus musculus with 12 samples.

Results

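Expression of C1qa, C1qb, Tyrobp and Slc37a2 was examined in every mouse of a brain RNA-seq study. They are 4 of the 15928 genes of the count table, and all 4 were kept by the filter on low counts. The genes were chosen by their measured difference between Tg and Wt mice, so their values in that contrast are given as a description, with no test.

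C1qa and C1qb encode chains of C1q, the molecule that opens the classical complement pathway when it binds antibody, cell debris or synapses, and microglia are its main source in the brain. Tyrobp encodes a membrane adaptor whose ITAM, a tyrosine signalling motif, passes signals from receptors such as Trem2 to the kinase Syk. Slc37a2 encodes a sugar-phosphate transporter that exchanges glucose-6-phosphate for phosphate across the endoplasmic reticulum membrane and is known mostly from macrophages and osteoclasts.

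The study asked how gene expression differs in the brain of Tg mice, a model of Alzheimer's disease. RNA came from brain sections with hippocampus and cortex of 12 mice aged about 11 months, 5 Wt and 7 Tg. Tg mice carry the Tg2576 transgene, human APP with the Swedish mutation under a prion gene promoter, and Wt mice carry no transgene. Libraries were made in 2 batches. Batch 1 held 3 Wt mice, 1 labelled female and 2 male, and 5 Tg mice, 4 labelled female and 1 male. Batch 2 held 2 Wt mice labelled female and 2 Tg mice labelled male. Labelled sex and genotype were thus uneven in both batches. The libraries held 15768135 to 20996174 counts each. Levels are given as CPM, a count scaled by the size of its library and by TMM normalization. The count table has no gene names, and 1349 genes were named by matching their mean normalized count, in each case within a relative difference of 1e-09, to a table of means from the study. The named genes are no even sample of the table, since 1097 of the 1349 had an unadjusted p under 0.05 between Tg and Wt mice in edgeR, against 1146 of all 15928.

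The labels were checked first. App, the mouse gene whose human counterpart the transgene carries, was at 1214 to 1496 CPM in Wt mice and at 2991 to 5727 CPM in Tg mice, and no Tg mouse lay in the Wt range. Its fitted log2 fold change, Tg minus Wt, came to 1.67 with a standard error (SE) of 0.15 and an edgeR adjusted p of 7.55e-04 (n = 5 and 7), and in the 8 mice of batch 1 alone it was 1.62 with an adjusted p of 0.418 from the same test. Xist, the RNA of the inactive X chromosome, went against 1 sex label. Mouse 41, a Wt mouse labelled male, had 198.9 CPM of Xist, inside the range of 149.5 to 233.4 of the mice labelled female, while the other 4 mice labelled male had at most 0.0563. The differences between the sexes and the interaction of genotype with sex are therefore given with and without mouse 41.

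The label of these genes as microglial could be checked only in part. Of 36 markers of microglia and macrophages, 12 had a name, and C1qa, C1qb and Tyrobp were among them. The markers Csf1r, Cx3cr1, P2ry12 and Tmem119 were not among the named genes. Slc37a2 was not on that list. In whole tissue, more cells of a type and more RNA per cell cannot be told apart.

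**Figure D1:**
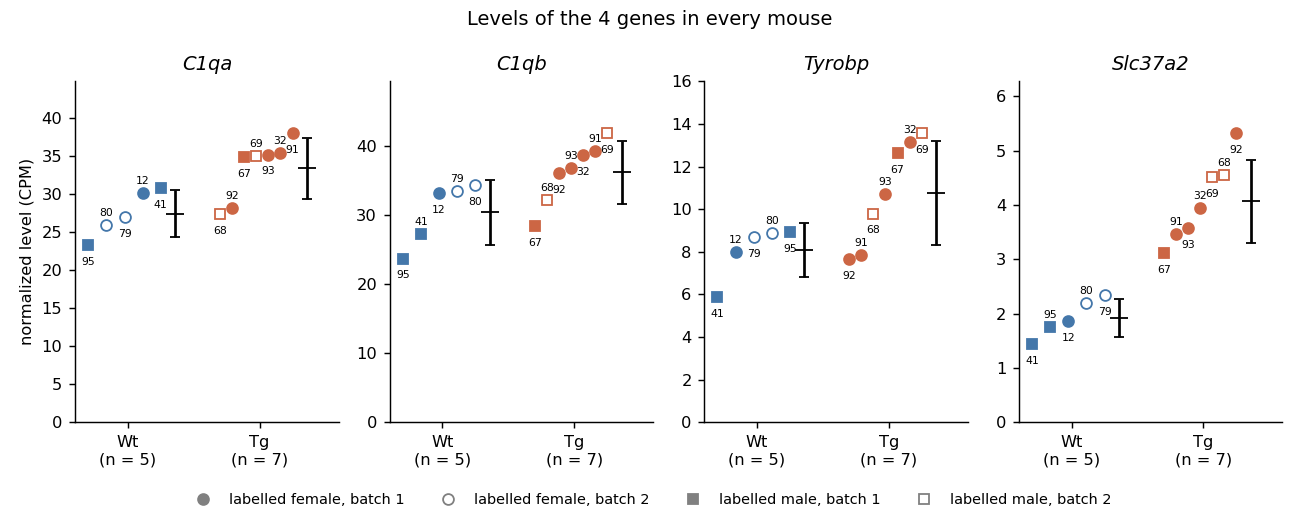
CPM of C1qa, C1qb, Tyrobp and Slc37a2 in each of 12 mice, with the mouse number beside each point, squares for mice labelled male, open symbols for batch 2, and the mean ± SD of each genotype. Slc37a2 was at 1.44 to 2.34 in Wt and 3.11 to 5.32 in Tg mice, and the other 3 genes overlapped between the genotypes.

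C1qa is found at bases 136895917 to 136898803 of chromosome 4 (GRCm38), on the minus strand. Its level in Wt mice was 30.1 CPM in mouse 12, 30.8 in mouse 41, 26.9 in mouse 79, 25.9 in mouse 80 and 23.3 in mouse 95. In Tg mice the lowest level was 27.4, the median 35.0 and the highest 38.0 CPM. Tg mice 68 and 92 lay inside the Wt range, and the other 5 lay above it. The means were 27.4 ± 3.09 (SD, n = 5) and 33.4 ± 4.01 (SD, n = 7) CPM, and the fitted log2 fold change was 0.27 with an SE of 0.11.

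C1qb lies beside it on the same strand, from 136880129 to 136886187, with C1qc between them, and the 3 C1q genes span 18675 bases. C1qc, the gene of the remaining chain, was not among the named genes. The level of C1qb in Wt mice was 33.1 CPM in mouse 12, 27.2 in mouse 41, 33.4 in mouse 79, 34.3 in mouse 80 and 23.7 in mouse 95. In Tg mice it had a lowest level of 28.4, a median of 36.8 and a highest of 41.9 CPM. The Wt mice thus held a high set of 3 mice labelled female and a low pair labelled male, and Tg mice 67 and 68 were the ones inside the Wt range. Mouse 41, of the low pair, had an Xist level like that of the mice labelled female, so the split follows the labels only. Mean C1qb was 30.4 ± 4.68 (SD, n = 5) in Wt and 36.2 ± 4.57 (SD, n = 7) CPM in Tg mice, with a fitted log2 fold change of 0.29 and an SE of 0.093. In batch 1 alone the log2 fold change of C1qb was 0.17.

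Tyrobp lies on the plus strand of chromosome 7, from 30413760 to 30417585, and lies 126 bases from Hcst, the gene of another adaptor, on the opposite strand. Its level in Wt mice was 7.99 CPM in mouse 12, 5.88 in mouse 41, 8.71 in mouse 79, 8.87 in mouse 80 and 8.95 in mouse 95. In Tg mice the lowest was 7.66, the median 10.7 and the highest 13.6 CPM. Tg mice 91 and 92 were below every Wt mouse but mouse 41, and the other 5 Tg mice were above every Wt mouse. Mean Tyrobp was 8.08 ± 1.28 (SD, n = 5) in Wt and 10.8 ± 2.45 (SD, n = 7) CPM in Tg mice. The fitted log2 fold change of 0.43 (SE 0.18) was 0.29 without mouse 41, the Wt mouse with the lowest Tyrobp and the Xist level at odds with its label.

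Slc37a2 lies on the minus strand of chromosome 9, from 37227585 to 37255738. Its level in Wt mice was 1.87 CPM in mouse 12, 1.44 in mouse 41, 2.34 in mouse 79, 2.19 in mouse 80 and 1.74 in mouse 95. In Tg mice the lowest level was 3.11, the median 3.94 and the highest 5.32 CPM. All 7 Tg mice lay above all Wt mice, as did those of 35 of the 15928 genes (0.22%), and because the gene was chosen from this contrast nothing is read from that separation. Mean Slc37a2 was 1.92 ± 0.356 (SD, n = 5) in Wt and 4.07 ± 0.768 (SD, n = 7) CPM in Tg mice, with a fitted log2 fold change of 1.14 and an SE of 0.18. Within batch 1 the Wt mice were at 1.44 to 1.87 and the Tg mice at 3.11 to 5.32 CPM, and within batch 2 they were at 2.19 and 2.34 against 4.51 and 4.55 CPM.

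Slc37a2 rested on few counts, 26 to 96 per library, and C1qa and C1qb on 414 to 891. The lowest Tg level of Slc37a2, in mouse 67, had a 95% Poisson interval of 2.34 to 4.06 CPM, and the highest Wt level, in mouse 79, one of 1.74 to 3.07, and these intervals overlapped. Such intervals cover counting error only. Slc37a2 also overlaps Gm10177 and Gm48081 on the opposite strand, and since the counting is not stated to use strand, their reads cannot be told apart from those of Slc37a2.

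Per length, the C1q genes were the most abundant of the 4. Expression in Wt mice was 27.9 ± 4.30 (SD, n = 5) CPM per kilobase of exon for C1qb and 26.4 ± 2.97 for C1qa, and these neighbours did not differ beyond their spread. Tyrobp followed with 12.1 ± 1.92 and Slc37a2 with 0.288 ± 0.0535 CPM per kilobase. The order was the same in Tg mice, with 33.3 ± 4.20, 32.1 ± 3.86, 16.1 ± 3.68 and 0.612 ± 0.116 (SD, n = 7) CPM per kilobase, and each lower neighbour after the C1q genes lay outside the spread of the one above it.

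At an adjusted p under 0.1, edgeR called 1 of 15928 genes (0.00628%) between Tg and Wt mice, and that gene was App. It called 0 of these 4 genes, while 1146 genes of the table had an unadjusted p under 0.05. DESeq2 with the same covariates called 56 genes (0.352%), of which 1, Slc37a2, was among the 4. These counts come from the contrast that chose the genes, and nothing is read from them.

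**Figure D2:**
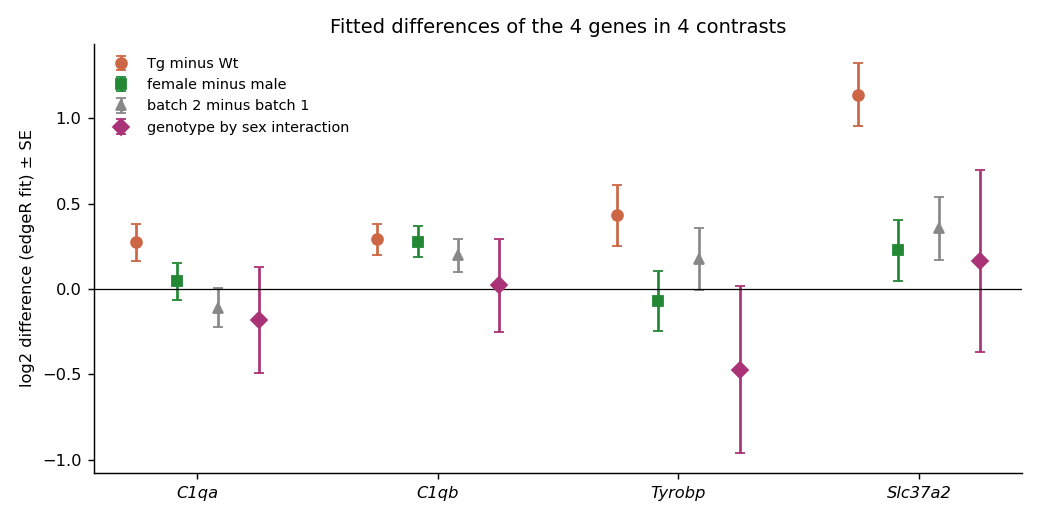
Fitted log2 differences of C1qa, C1qb, Tyrobp and Slc37a2 in 4 contrasts over 12 mice, each with its standard error as a bar. The contrast of Tg with Wt mice chose the genes, and in the other 3 contrasts none passed an adjusted p of 0.1, with C1qb 0.28 higher in mice labelled female.

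Sex, batch and the interaction of genotype with sex were not used in choosing the genes and could be tested. C1qb had the largest sex difference of the 4 relative to its error. Wt mice labelled female had 33.1 to 34.3 CPM of C1qb and those labelled male 23.7 and 27.2. Tg mice labelled female had 36.1 to 39.3 CPM, and those labelled male 28.4, 32.2 and 41.9. The log2 difference, female minus male, was 0.28 (SE 0.093, 95% interval 0.078 to 0.48, adjusted p = 0.354 from edgeR, 7 against 5 mice), and it was 0.32 (SE 0.11, adjusted p = 0.92 from edgeR) without mouse 41. It therefore did not pass the test.

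The sex differences of the other 3 genes were smaller or less certain. For C1qa the log2 difference was 0.045 (SE 0.11), for Tyrobp -0.070 (SE 0.17) and for Slc37a2 0.23 (SE 0.18). Without mouse 41 they were 0.11, -0.21 and 0.185. That of Slc37a2 was 0.14 without mouse 92. The edgeR fit called 0 genes of the table between the sexes (0%), with 1801 at an unadjusted p under 0.05, and DESeq2 called 175 (1.1%), none of them among the 4. The edgeR count rested on single libraries, since it was 1 without mouse 41 and 540 without mouse 95, the other Wt mouse labelled male.

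Between batches, Slc37a2 had a log2 difference, batch 2 minus batch 1, of 0.36 (SE 0.19, adjusted p = 0.636 from edgeR) and C1qb of 0.20 (SE 0.096, adjusted p = 0.636 from edgeR). The log2 difference was 0.18 for Tyrobp and -0.11 for C1qa. Single mice moved these values, to 0.086 for C1qb without mouse 69, 0.069 for Tyrobp without mouse 41 and -0.039 for C1qa without mouse 68. The edgeR fit called 0 genes of the table (0%), with 1217 at an unadjusted p under 0.05, and DESeq2 called 24 (0.163%), none of them among the 4. Batch 2 had 4 mice, in which genotype and labelled sex cannot be told apart.

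The genotype difference itself could not be shown to differ between the sexes. The interaction, the log2 fold change in mice labelled female less that in mice labelled male, was -0.47 for Tyrobp (SE 0.49, 95% interval -1.54 to 0.59, adjusted p = 0.992 from edgeR). It was -0.18 for C1qa, 0.021 for C1qb and 0.16 for Slc37a2, with SEs of 0.31, 0.27 and 0.54. Without mouse 41 the interaction was -0.20 for Tyrobp, -0.39 for C1qa, -0.078 for C1qb and 0.30 for Slc37a2, so that of C1qb turned sign. This leaves mouse 95 as the 1 Wt mouse labelled male, and the fit without mouse 95 leaves mouse 41, so in both the lone mouse is assumed to vary like the other groups. That of Tyrobp rested on single mice, at -0.21 without mouse 67, -0.71 without mouse 12 and -0.81 without mouse 95. Tyrobp was at 7.66 to 13.1 CPM in Tg mice labelled female and at 9.80 to 13.6 in those labelled male. The edgeR fit called 0 genes of the table for the interaction (0%), with 567 at an unadjusted p under 0.05, and DESeq2 called 17 (0.107%), none of them among the 4.

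**Figure D3:**
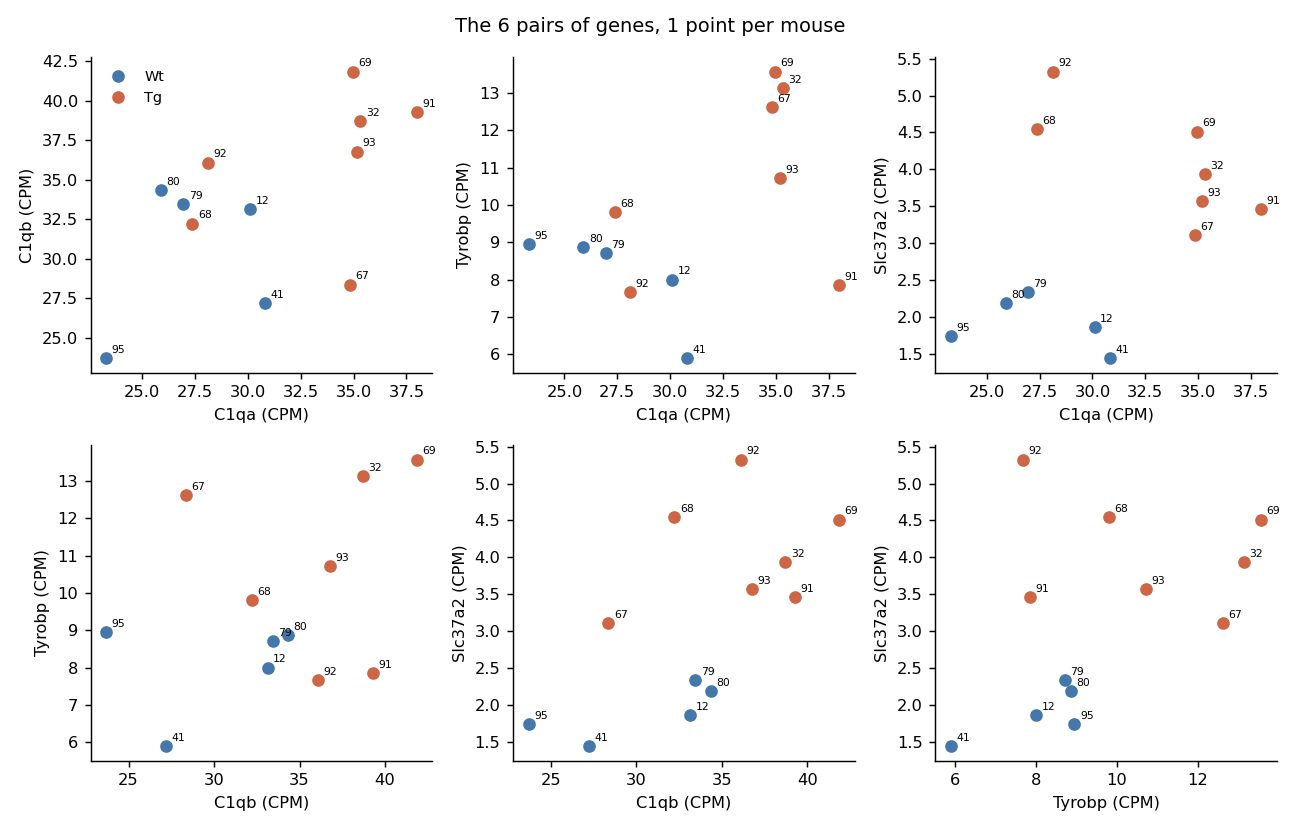
CPM of each pair of the 4 genes, with 1 point and number per mouse and colours for Wt and Tg mice. Within Tg mice the points showed no common order, with Pearson's r from -0.745 to 0.354 over the 6 pairs.

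Relations among the 4 genes were computed within the 7 Tg mice, from log2 CPM with a prior count of 2, because the genotypes may separate. Of 10 planned relations, 6 were pairs of these genes and 4 were with App, and 0 of the 10 passed an adjusted p of 0.1. C1qa and C1qb, neighbours in the genome and partners in one protein, had a Pearson's r of 0.348 (exact permutation p = 0.452, 0.730 adjusted over the 10) and a Spearman's rho of 0.679 (exact permutation p = 0.110, 0.548 adjusted). Their r was 0.329 without mice 68 and 92, the farthest from the median of C1qa, and 0.119 in the 5 Tg mice of batch 1. With single mice left out it ran from 0.151, without mouse 68, to 0.793, without mouse 67 (exact permutation p = 0.0514, 0.257 adjusted), so 1 mouse decided its size. Batch 2 had 2 Tg mice, too few for an r.

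The strongest of the 6 relations was an inverse one, between C1qa and Slc37a2. Pearson's r was -0.745 (exact permutation p = 0.0633, 0.600 adjusted over the 10) and Spearman's rho -0.571 (exact permutation p = 0.2, 0.667 adjusted). In batch 1 r was -0.863 (n = 5), but without mice 68 and 92 it was -0.208, so the relation rests on those mice. With single mice left out it ran from -0.844 to -0.589. Mice 68 and 92 had the lowest C1qa of the Tg mice and the highest Slc37a2. C1qa and Tyrobp had an r of 0.354 (exact permutation p = 0.429, 0.730 adjusted) and a rho of 0.214 (exact permutation p = 0.662, 0.945 adjusted), with an r of 0.360 in batch 1 and of -0.919 without mice 68 and 92. With single mice left out their r ran from 0.0211, without mouse 92, to 0.827, without mouse 91 (exact permutation p = 0.0542, 0.542 adjusted).

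In the other 3 pairs, too, r depended on single mice. C1qb and Slc37a2 had an r of 0.324 (exact permutation p = 0.477, 0.730 adjusted) and a rho of 0.0357 (exact permutation p = 0.963, 0.963 adjusted), with an r of 0.385 in batch 1 and of -0.152 without mice 67 and 68. C1qb and Tyrobp had an r of -0.0369 (exact permutation p = 0.937, 0.937 adjusted) and a rho of 0.321 (exact permutation p = 0.498, 0.945 adjusted), with an r of -0.410 in batch 1 and of 0.568 without the same mice. Tyrobp and Slc37a2 had an r of -0.295 (exact permutation p = 0.510, 0.730 adjusted) and a rho of -0.25 (exact permutation p = 0.595, 0.945 adjusted), with -0.519 in batch 1 and -0.154 without mice 91 and 92, but 0.168 without mouse 92 alone. These tests were two-sided.

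App in Tg mice fell into separate sets, at 2991, 3147 and 3393 CPM in mice 91, 92 and 32 and at 5140 to 5727 in the other 4 mice. The 4 planned relations with App were computed over the 7 Tg mice, and for that reason their r and rho are not given. Tyrobp was at 7.85, 7.66 and 13.1 CPM in mice 91, 92 and 32, and at 9.80 to 13.6 in the 4 mice with more App. The sets overlapped through mouse 32, and the relation could not be tested within sets of 3 and 4 mice. The sets also differed in labelled sex and batch. Mice 91, 92 and 32 were labelled female and were in batch 1. The other 4 were mice 67, 68 and 69, labelled male, and mouse 93, labelled female, and mice 68 and 69 were in batch 2. Slc37a2 was highest in mouse 92 and lowest in mouse 67, and these had 3147 and 5198 CPM of App. Mouse 91, with the least App of the Tg mice, had 3.46 CPM of Slc37a2, and mouse 69, with the most, had 4.51.

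Ratios between the genes in single mice were also compared between the genotypes. The ratio of C1qb to C1qa was 0.883 to 1.33 in Wt and 0.815 to 1.28 in Tg mice, so the genotypes overlapped almost fully. The ratio of Tyrobp to C1qa was 0.191 to 0.384 in Wt and 0.207 to 0.388 in Tg mice. Slc37a2 over C1qb was 0.0531 to 0.0736 in Wt and 0.0882 to 0.147 in Tg mice, and Slc37a2 over Tyrobp 0.195 to 0.268 and 0.247 to 0.695. Both ratios carry the Slc37a2 difference that chose the gene, and nothing is read from their separation. The spread within a genotype, as an SD of log2 CPM, was 0.17 for C1qa, 0.21 for C1qb, 0.31 for Tyrobp and 0.26 for Slc37a2, against a median of 0.26 over all genes. Counting error alone would give Slc37a2 an SD of about 0.20, and 91.1% of the 989 genes with a like count varied more. The contrast that chose Slc37a2 favours a gene with a small spread within a genotype, so that share is a description only.

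The named genes most like each of the 4 were found over 12 mice after the mean of each genotype was subtracted, by Pearson's r among the 1348 other named genes. They are given as a description. For C1qa they included Zc3h12a, which encodes an RNase that cuts inflammatory mRNAs (r of 0.840), the antisense RNA E030013I19Rik (0.759), Cdyl (0.730) and the pseudogene Gm11942 (0.720). For C1qb they were Casp8, a caspase of cell death (0.840), Arf4 (0.823), Fam196b (0.819), RP23-67I3.5 (0.812) and Ptger4, a receptor of prostaglandin E2 (0.788). For Tyrobp the snoRNA Gm22776 (0.782), Ccdc17 (0.774), the snRNA Gm22618 (0.741), 0610040B10Rik (0.720) and Ccdc74a (0.706) came first. For Slc37a2 they were Wdr44 (0.812), Prkcq (0.799), the clotting factor gene F5, which is also on the choroid plexus list (0.753), the heme oxygenase gene Hmox1 (0.752) and the snoRNA Gm24760 (0.744). None of the 4 was among the 5 nearest genes of another. C1qb ranked 176 for C1qa with an r of 0.349, and Tyrobp ranked 710 for C1qa with an r of 0.00899. Pseudogenes and small RNAs share sequence with other genes, so their counts are uncertain.

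The promoters of C1qb and Slc37a2 are shown, 1 for the C1q genes and 1 for the transporter, since the RefSeq table on GRCm38.p6 held these 2 of the 4 genes and not C1qa or Tyrobp. Each is the 250 bases before the RefSeq start, on the minus strand, from chr4:136886201-136886450 for C1qb and from chr9:37255739-37255988 for Slc37a2. Capitals mark matches, on either strand, to GGAAGT, a core bound by ETS factors such as PU.1 of myeloid cells, and to TGANTCA, the AP-1 motif; the motifs did not overlap.
C1qb: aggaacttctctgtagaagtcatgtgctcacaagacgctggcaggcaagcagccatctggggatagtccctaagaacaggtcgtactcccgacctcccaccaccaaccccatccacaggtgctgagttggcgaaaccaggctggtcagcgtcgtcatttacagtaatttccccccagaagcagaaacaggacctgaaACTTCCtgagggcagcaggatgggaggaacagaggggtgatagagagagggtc
Slc37a2: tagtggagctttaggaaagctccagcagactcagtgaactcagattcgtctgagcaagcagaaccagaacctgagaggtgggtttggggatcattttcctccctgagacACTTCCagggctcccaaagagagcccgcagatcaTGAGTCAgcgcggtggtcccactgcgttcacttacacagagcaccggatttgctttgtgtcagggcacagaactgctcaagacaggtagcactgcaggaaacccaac
C1qb held GGAAGT on its reverse strand, from 53 to 48 bases before the start. Slc37a2 held GGAAGT on its reverse strand from 141 to 136 bases before the start and TGANTCA, as TGAGTCA, beginning 107 bases before it. Of 32851 promoters of the same length, 19.7% held GGAAGT and 6.75% held TGANTCA. A match shows that the letters are there and no more.

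**Figure D4:**
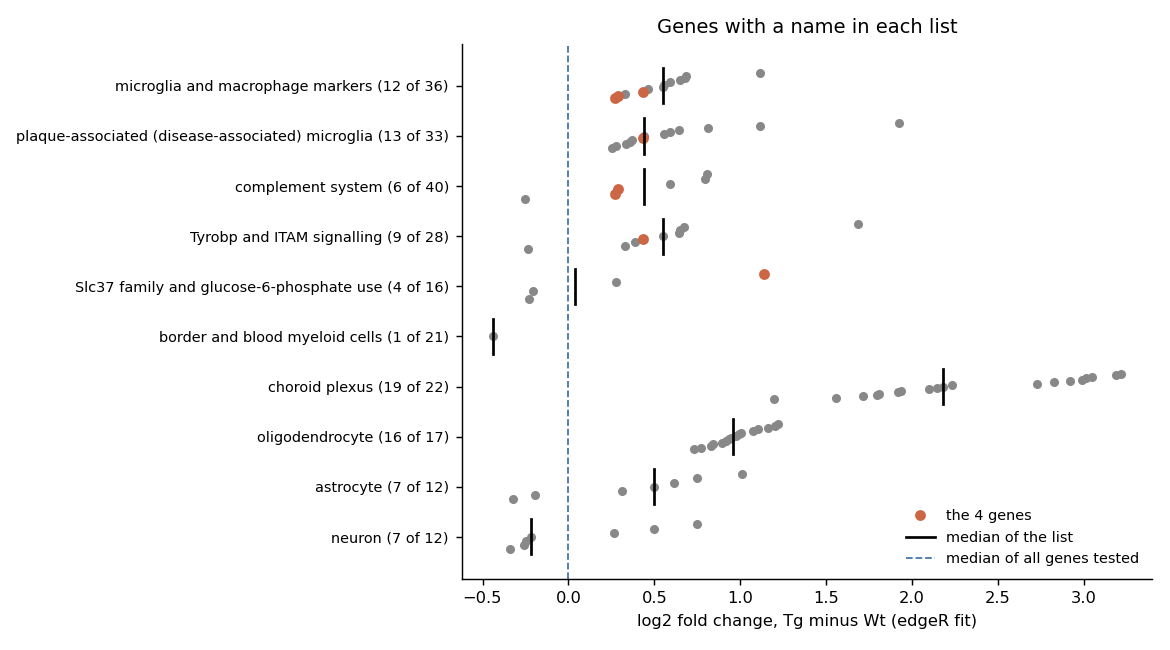
Fitted log2 fold change, Tg minus Wt, of each gene with a name in 10 lists, with the number named of the number listed, the list's median as a bar, and the median of all genes tested as a dashed line. C1qa, C1qb and Tyrobp stand among the 12 microglia and macrophage markers, all higher, Slc37a2 stands in its own list with 2 higher and 2 lower, and the choroid plexus list had the highest median, 2.18.

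The numbers higher and lower in every list were the same with library size alone, with median-of-ratios scaling and with DESeq2. Of 131 genes in 5 lists on microglia, complement, ITAM signalling and Slc37 transporters, 34 had a name. The edgeR test called 0 of the 34, with 31 at an unadjusted p under 0.05, and DESeq2 called 3, Ctsd, Lyz2 and Slc37a2. Of all 1349 named genes 81.3% had such an unadjusted p, and DESeq2 called 4.15%, and these shares stand beside the counts in place of those of the table. The direction of the 34 is to be read beside that of all named genes. Of the 1349 named genes, 754 (55.9%) had a positive log2 fold change against 49.3% of all genes tested, with medians of 0.32 and -0.0030.

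All 12 named markers of microglia and macrophages were higher in Tg mice by the fitted log2 fold change, with a median of 0.55, and of 0.59 over the 9 that are not among the 4 genes. Lyz2, the lysozyme of macrophages, was at 1.72 to 8.69 CPM in Wt and 6.57 to 12.8 in Tg mice, and its fitted difference was 1.12 (log2, SE 0.30); its near copy Lyz1 makes its counts uncertain. Ptpn6, a phosphatase that dampens ITAM signals, was at 1.86 to 2.74 in Wt and 2.77 to 4.63 CPM in Tg mice. The genotypes did not overlap, by a gap far smaller than either range. All Tg mice lay above all Wt mice in 35 of the 15928 genes (0.22%). The named genes favour those that differ, so nothing is read from the separation of Ptpn6. Ly86, Tlr2, C3ar1, Cd14, Vav1, Cd37 and Fcgr3 had log2 fold changes from 0.33 to 0.68 and overlapped between the genotypes. The summed level of the 9 markers other than C1qa, C1qb and Tyrobp was 20.5, 26.7, 30.9, 36.3 and 38.7 CPM in the Wt mice and had a lowest of 35.97, a median of 44.5 and a highest of 55.2 in the Tg mice. Tg mice 67 and 92 lay inside the Wt range of that sum, and the other 5 above it. The median log2 fold change of the 12 was 0.50 in batch 1 alone and 0.44 without mouse 41.

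Of 33 genes known from microglia around amyloid plaques, 13 had a name, 12 of them at an unadjusted p under 0.05 in edgeR. All 13 were higher in Tg mice, with a median log2 fold change of 0.44. Without Tyrobp that median was 0.50. With the mean level of choroid plexus or of oligodendrocyte markers as a covariate, 12 were higher and 1 lower. Spp1, which encodes osteopontin, was at 0.11 to 4.20 CPM in Wt and 2.07 to 13.1 in Tg mice, and its fitted difference was 1.92 (log2, SE 0.51). Ctsd, a lysosomal protease that other brain cells make too, was at 196.6 to 263.6 CPM in Wt and 262.9 to 314.0 in Tg mice, and 6 of 7 Tg mice were above all Wt mice. Cd9 was at 9.66 to 22.8 in Wt and 16.97 to 31.8 CPM in Tg mice. Capg, Ctsh, Cd14, Ctsz, Cd63, Gusb, Npc2 and Fth1 had log2 fold changes from 0.26 to 0.81, and Fth1 has many processed copies that make its counts uncertain. Ctsz was highest in a Wt mouse, at 38.3 CPM in mouse 12.

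Among 40 complement genes, 6 had a name, 5 higher and 1 lower, with a median log2 fold change of 0.44. They include C1qa and C1qb, which this contrast chose. Of the other 4, 3 were higher and 1 lower, with a median of 0.69. Downstream of C1q, C4b was at 19.4 to 154.2 CPM in Wt and 78.2 to 203.2 in Tg mice, and its fitted difference was 0.80 (log2, SE 0.34). Serping1, the C1 inhibitor, was at 0.50 to 6.18 and 2.25 to 4.17 CPM, and C3ar1, the receptor of C3a, at 0.94 to 2.01 and 1.28 to 3.19. Csmd1, a membrane protein that restrains complement and is made by neurons, differed by -0.25 (log2, SE 0.10). The genotypes overlapped for each of these 4 genes.

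Of 28 genes of Tyrobp and ITAM signalling, 9 had a name, 8 higher and 1 lower, with a median log2 fold change of 0.55. Without Tyrobp that median was 0.60. Beside Tyrobp, Fcgr3, Ptpn6 and Vav1, the higher ones were Vav3, Sh3bp2, Rasgrp3 and Prkcd. Vav3 and Sh3bp2, which act below ITAM receptors, were at 3.60 to 6.68 and 1.69 to 4.14 CPM in Wt and at 4.37 to 14.7 and 2.73 to 5.37 in Tg mice. Prkcd, a protein kinase C gene that neurons of the thalamus also express, was at 7.32 to 27.1 CPM in Wt mice and at 8.63 to 124.8 in Tg mice, with medians of 11.8 and 9.94 and a fitted log2 fold change of 1.68, so that 3 of 7 Tg mice were above every Wt mouse and the other 4 below the Wt median. Cbl, a ubiquitin ligase that ends receptor signals, was lower, at 39.1 to 54.5 in Wt and 35.8 to 44.2 CPM in Tg mice.

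Of 16 genes of the Slc37 family and of glucose-6-phosphate use, 4 had a name, and Slc37a2 was the 1 transporter among them. G6pdx, the first enzyme of the pentose phosphate pathway, was at 16.99 to 26.1 CPM in Wt and 21.9 to 29.2 in Tg mice. Hk1 and Ldha, enzymes of glycolysis, had log2 fold changes of -0.21 and -0.23. The 3 enzymes thus went in both directions beside Slc37a2.

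Of 50 named markers of other cell types, edgeR called 0 between the genotypes, with 48 at an unadjusted p under 0.05, and DESeq2 called 4, Prlr, Aspa, Gfap and Agt. These are 96.0% and 8.0% of the 50, beside the 81.3% and 4.15% of all named genes. By the fitted values, all 19 of the 22 choroid plexus markers that had a name were higher in Tg mice, with a median log2 fold change of 2.18, and all 16 of 17 oligodendrocyte markers, with 0.96. In batch 1 alone those medians were 0.79, with 18 choroid plexus markers higher and 1 lower, and 0.35. The summed choroid plexus level was 105.6, 143.2, 212.0, 356.7 and 604.9 CPM in Wt mice and had a lowest of 101.8, a median of 1853 and a highest of 2392 in Tg mice. Ttr, its most abundant gene by the mean over all mice, was at 16.9 to 370.8 CPM in Wt and 7.21 to 1581 in Tg mice. Enpp2 was at 76.9 to 160.4 and 65.9 to 556.3, and Kl at 5.44 to 14.1 and 6.48 to 65.3. The Wt median was 45.8 CPM for Ttr and 131.4 for Enpp2. In mice 41, 67, 80, 93 and 95 Ttr, at 7.21 to 45.8 CPM, was below the lowest Enpp2 of any mouse. Tg mice 67 and 93 had sums below every Wt mouse, and the other 5 Tg mice above. Of the 19 markers, 3 were at 0 counts in mouse 41 (Kcne2, Tmem72 and Calml4), 2 in mouse 67 and 1 in mouse 93. The oligodendrocyte sum was 1152 to 3801 in Wt and 1577 to 6375 CPM in Tg mice, with overlap, and with Mbp as its most abundant gene and Mobp also among the highest.

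**Figure D5:**
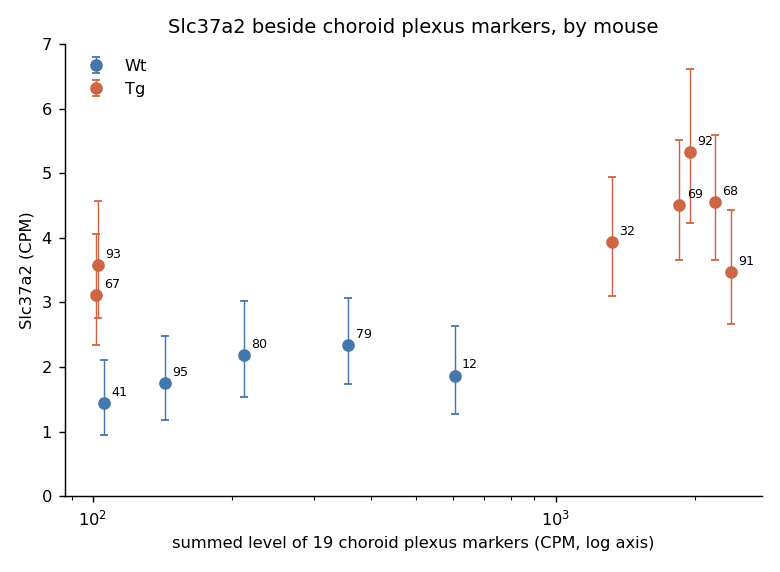
CPM of Slc37a2, with its 95% Poisson interval, against the summed CPM of 19 choroid plexus markers on a log axis, for each of 12 mice. Tg mice 67 and 93 had sums of 101.8 and 102.6, below all Wt mice, and Slc37a2 of 3.11 and 3.57, with intervals that overlap that of Wt mouse 79. Tg mice 32, 68, 69, 91 and 92 had sums of 1326 to 2392 and Slc37a2 of 3.46 to 5.32.

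Slc37a2 and choroid plexus RNA are given side by side, first for the Tg mice with the least of the latter. Mice 67 and 93 had 7.21 and 11.7 CPM of Ttr, less than any Wt mouse, and 3.11 and 3.57 CPM of Slc37a2. Their 95% Poisson intervals of Slc37a2, 2.34 to 4.06 and 2.75 to 4.56 CPM, overlapped that of Wt mouse 79, 1.74 to 3.07, and the difference between single mice was not tested. Mouse 91, with the highest choroid plexus sum, 2392 CPM, had 3.46 CPM of Slc37a2. Tg mice 68, 92, 69 and 32, with sums of 2208, 1952, 1853 and 1326 CPM, had 4.55, 5.32, 4.51 and 3.94 CPM of Slc37a2. In Wt mice 41, 95, 80, 79 and 12 the sums were 105.6, 143.2, 212.0, 356.7 and 604.9 CPM. Slc37a2 was at 1.44, 1.74, 2.19, 2.34 and 1.87 CPM in the same order. With the choroid plexus score as a further covariate the log2 fold change was 1.01 for Slc37a2, 0.31 for C1qa, 0.24 for C1qb and 0.54 for Tyrobp, and with the oligodendrocyte score 1.09, 0.27, 0.24 and 0.48. The median of the 12 microglial markers was 0.58 with the first score and 0.56 with the second. That of the ITAM signalling genes was 0.32 and 0.29, against 0.55 without a score, and with the second 7 were higher and 2 lower. That of the complement genes was 0.34 and 0.22, against 0.44. The part of these cells in the differences was not tested beyond these covariates.

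Other cells gave mixed directions. Of 21 markers of border and blood myeloid cells 1 had a name, Itga4, at 17.3 to 30.1 CPM in Wt and 14.0 to 22.9 in Tg mice, so these cells could not be examined. Of 7 named astrocyte markers 5 were higher and 2 lower; Gfap was at 49.6 to 207.6 CPM in Wt and 184.2 to 329.4 in Tg mice, and Slc1a2 and Slc1a3 had log2 fold changes of -0.32 and -0.19. Of 7 named neuron markers 3 were higher and 4 lower, and Camk2a, Slc17a7 and Grin2b had -0.25, -0.26 and -0.34. The summed astrocyte level was 2768 to 3571 CPM in Wt and 2527 to 3165 in Tg mice, and the neuron sum 4189 to 6416 and 3655 to 4902.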

How the data were processed

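RNA-seq counts of 12 mice were analysed, 5 Wt and 7 Tg. The authors removed ribosomal RNA, sequenced on an Ion Torrent instrument, used STAR and Bowtie2 for alignment to mm10, and deposited raw counts of unique reads per gene after removing genes with low counts. A second deposited table gives the library batch and a normalization factor that the authors obtained with edgeR, the ratio of each library to the rest. The members and the gene lists were chosen with earlier results of these data known.

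Genes were named by solving 12 size factors so that the mean normalized count equalled the mean in the study's results table, which was used for names alone, and 335 of its 1684 genes stayed unnamed. No name was given when those means were shifted in 10 trials. Tests used edgeR 4.0.16 (TMM, filterByExpr, which removed 0 genes, and quasi-likelihood F-tests) with sex, batch and genotype, in R 4.3.3, with Benjamini-Hochberg adjustment over 15928 genes and a threshold of 0.1. The alternatives were DESeq2 1.42.0, other normalization, filters, covariates and thresholds, batch 1 alone, marker scores (mean log2 CPM of 19 choroid plexus or 16 oligodendrocyte markers) and each mouse left out. The use of the deposited factors was added after seeing the data. Tests and naming were tested on simulated data.

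Relations within Tg mice used exact permutation over all 5040 orderings, two-sided (Python 3.11.15; numpy 2.4.6; scipy 1.17.1). GENCODE M21 (GRCm38, which is mm10) gave positions and exon lengths; exon length is the union of all transcripts. Genes named in the text are the 4 members, App, Xist, every named gene of the 5 lists, genes among the 3 most abundant named ones of each list of another cell type, and among the 5 most like each member. Markers at 0 counts (Kcne2, Tmem72, Calml4) and markers called by DESeq2 (Prlr, Aspa, Agt) were named after their values were seen. Depth was 15768135 to 20996174 counts per library, and intervals are exact Poisson at 95%.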

Additional observations from a re-analysis of the deposited data

Results flagged for a closer look

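In 136 groups, the Wt and the Tg mice for each of 68 genes named above, 4 held a mouse whose level stood far from the others of its genotype, where chance gives about 1 in 20. These 4 are therefore no more than chance gives. In Wt mouse 12, Ctsz was 38.3 CPM against 15.9 to 21.1 in the other Wt mice, and Serping1 was 6.18 against 0.50 to 1.89. E030013I19Rik was 1.28 CPM in Wt mouse 79 against 1.86 to 2.01 in the others. Casp8 was 1.67 CPM in Tg mouse 67 against 2.37 to 2.71 in the others. C1qa, C1qb, Tyrobp and Slc37a2 had no such mouse in either genotype, and none of the 4 passed the test of a genotype difference between the sexes.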

How the results depend on the processing

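The direction of the log2 fold change, Tg minus Wt, held for all 4 genes in each of 24 alternatives, with ranges of 0.19 to 0.33 for C1qa, 0.17 to 0.33 for C1qb, 0.29 to 0.54 for Tyrobp and 1.01 to 1.21 for Slc37a2. That direction chose the genes and shows no stability.

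Counts of calls depended on the settings, and the cause was not tested. For Tg against Wt, edgeR called 1 gene, and DESeq2 56, the filter of at least 1 CPM in every mouse 2, batch 1 alone 0, and the choroid plexus and oligodendrocyte scores 2 each. With each mouse left out it called 1 or 2. Slc37a2 was called by DESeq2 and under that filter, 1 of the 4 genes in each, and by no other setting. App was not called in batch 1 alone, which holds fewer mice (1.62, adjusted p = 0.418 from edgeR), and stayed at 1.55 to 1.73 with each mouse left out. DESeq2 called 175 genes for sex, 24 for batch and 17 for the interaction, where edgeR called 0. With mice left out, edgeR called 0 to 540 genes for sex and 0 or 1 for the interaction, the latter without mouse 32 or 95. The deposited normalization factors, tried after seeing the data, equalled those computed here and changed no value.

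Some small values turned sign. For female minus male, C1qa ranged from -0.039 to 0.11 and Tyrobp from -0.21 to 0.010 with mice left out. The interaction of C1qb was -0.033 with library size alone and -0.31 to 0.38 with mice left out, that of C1qa -0.39 to 0.0057 that of Slc37a2 -0.097 to 0.42 and that of Tyrobp, without a turn of sign, -0.81 to -0.20. With mice left out, batch differences ranged from -0.19 to -0.039 for C1qa, 0.086 to 0.25 for C1qb, 0.069 to 0.29 for Tyrobp and 0.32 to 0.41 for Slc37a2; with library size alone they were -0.038, 0.27, 0.245 and 0.43 in the same order. Within Tg mice the r of C1qb with Tyrobp ranged from -0.37 to 0.40, of C1qb with Slc37a2 from -0.29 to 0.485 and of Tyrobp with Slc37a2 from -0.61 to 0.17; that of C1qa with C1qb stayed at 0.15 to 0.79 and with Tyrobp at 0.021 to 0.83. The number of the 10 relations past the threshold was 0 or 1 with mice left out, and the 1, without mouse 32, was that of App with Tyrobp, whose r is not given because App falls into separate sets. Depth limited Slc37a2 most, at 26 to 96 counts per library.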
